A study of Homo sapiens with 6 samples.

Results

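Genes of the lysosome and of autophagy were examined in EJ/T24 cells, a line from a human bladder cancer, after transfection with FOXA1. The set holds 57 genes chosen by name, which encode lysosomal hydrolases, membrane proteins and proton pump subunits, the autophagy machinery, the TFEB family of regulators, and RHEB and RNASET2. Each was read on probe sets annotated with that symbol alone, and a gene with several probe sets was represented by the one with the highest mean log2 signal over the arrays. On this rule 56 of the 57 genes were measured, by 148 probe sets, out of 19775 genes and 54613 probe sets in all. The probe set for GLB1 (lysosomal beta-galactosidase) is also annotated with TMPPE and was not read.

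The 6 arrays form 2 groups, 3 from cells transfected with the forkhead transcription factor FOXA1 and 3 from control cells transfected with a plasmid without it. Both groups were the same cell line, plated to 70% confluence in a 90 mm dish and given 24 µg of plasmid DNA with a lipid reagent. The labels name pUC19 as the control plasmid, whereas the study's methods name the empty expression vector. The sources do not give the share of cells that took up the plasmid, the time to harvest or any selection, and an array reads the RNA of a whole dish, so that a change in a share of the cells cannot be told apart from a smaller change in all of them. The methods say that experiments were done in triplicate but not whether each array stands for an independently transfected dish, so the p-values rest on array-to-array spread alone, which could be technical.

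A lysosome is an acidic compartment in which proteins, nucleic acids, sugars and lipids are broken down. The V-ATPase pumps protons into it, membrane proteins such as LAMP1 line it, and autophagy delivers cytoplasmic cargo to it in vesicles that are built by the ATG proteins and decorated with ATG8 proteins. When mTORC1, which RHEB activates at the lysosomal surface, is inhibited, TFEB and TFE3 enter the nucleus and bind the CLEAR element (whose core is the E-box CACGTG) in promoters of lysosomal genes.

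The deposited values are MAS5 signals, linear brightness values scaled by the authors to the same trimmed mean on each array. FOXA1, the transfected gene, was read at 38.9, 34.8 and 31.9 on the FOXA1 arrays and at 21.8, 24.4 and 21.0 on the control arrays, a mean of 35.2 ± 3.52 against 22.4 ± 1.78 (SD, n = 3). The groups did not overlap (log2 difference 0.65, SE 0.23, adjusted p = 0.307 by limma). A second FOXA1 probe set was dim, at 2.5, 6.8 and 6.6 against 8.0, 7.3 and 5.9, and gave -0.54 (SE 0.64) with overlap. Every signed value here is FOXA1 minus control as the labels assign the arrays. The study's own table of changed genes carries the opposite sign for its probe sets, including one for RHEB and one for RNASET2, and which sign is right was not tested beyond the FOXA1 signal. The study also reports a western blot of FOXA1 protein on part of the transfected cells, which was not examined here. Of the markers of the line, 6 of 7 (KRT7, KRT8, KRT18, VIM, CD44 and HRAS) had a mean signal over 14, which is 4 times the 20th percentile of all signals, and KRT19 did not. Of the markers of differentiated urothelium 2 of 7 passed that level, UPK1A, UPK2, UPK3A, KRT20 and GATA3 being under it (summed signals of 73.9 to 106.0 on the FOXA1 arrays and 63.6 to 82.1 on the control arrays). Of the leukocyte markers 1 of 10 (ITGAM) passed, with sums of 86.0 to 143.7 and 62.9 to 98.4. Of 6 markers of endothelium, muscle and fibroblasts, PECAM1 alone passed (sums of 66.0 to 94.1 and 59.3 to 91.9). The ratio of 3' to 5' signal of ACTB, a measure of RNA integrity and priming, was 2.37 ± 0.228 on the FOXA1 arrays and 1.73 ± 0.188 on the control arrays without overlap (exact two-sided permutation p = 0.1, the smallest that 3 against 3 arrays can give), and its part in the results below was not tested.

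No lysosome or autophagy gene passed the test between FOXA1 transfected and control cells. By limma with Benjamini-Hochberg adjustment over all probe sets, 0 of 56 were called higher and 0 lower at an adjusted p under 0.05, where 0.0607% of all 19775 genes were called higher and 0.0303% lower. SAM, the method named by the study, also called 0. The smallest adjusted p was 0.0973, for SCARB2. At an unadjusted p under 0.05 there were 5 genes with higher and 6 with lower signals, 8.93% and 10.7% of the 56, beside 9.07% and 5.49% of all genes. Of the 12095 genes with a signal above the median of all probe sets, 1390 were higher and 996 lower at that p.

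The differences were small in both directions. The log2 differences of the 56 genes ran from -0.57 to 0.52 with a median of 0.04, and 32 of them (57.1%) were above 0. Over all genes the median was 0.07 and 59.2% were above 0. All FOXA1 arrays lay above all control arrays for 7 genes (12.5%) and below them for 8 (14.3%), while the same held for 12.5% and 7.25% of all genes. Since 55 of the 56 genes had a signal above the median of all probe sets, the brighter genes are the closer background, and among these 14.6% lay above and 10.4% below without overlap. The median standard error was 0.0994 on the log2 scale. Centring every array on its own median moved the median over all probe sets from 0.08 to -0.10 and that of the 56 genes from 0.04 to -0.14, with 10 genes above 0 and 46 below. It left 0 genes above without overlap. That count has no share of all genes beside it and is not read as a result about the set. All genes shift by the same amount under this centring, and over all genes the median was then -0.11 with 38.3% above 0. The signs of values near 0 given here therefore hold for the deposited scaling.

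**Figure D1:**
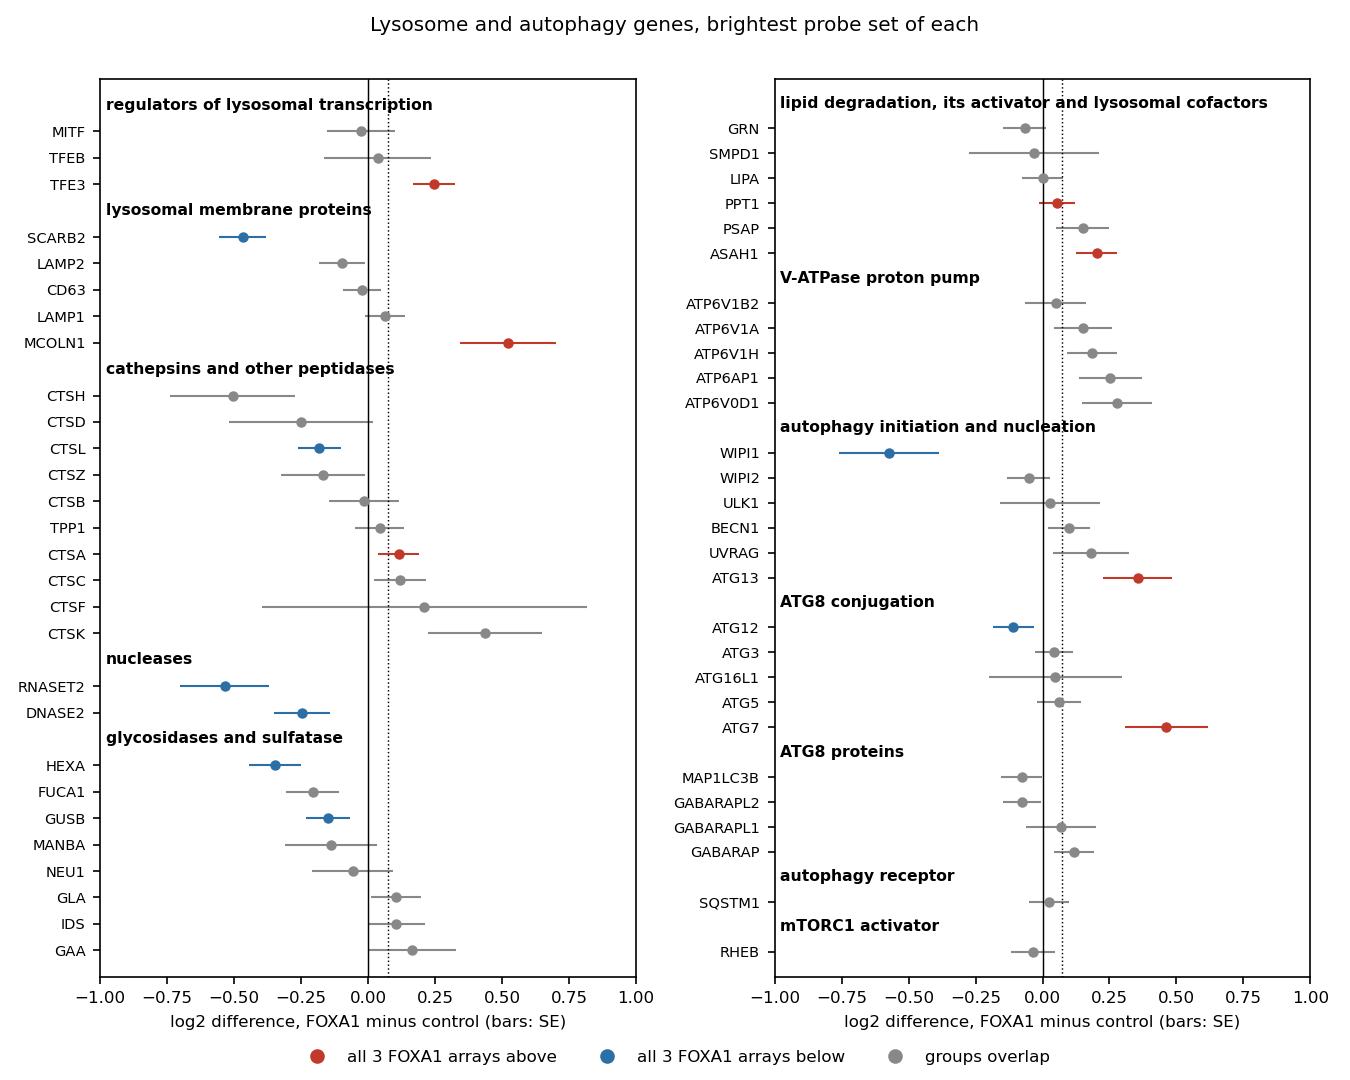
Log2 difference (FOXA1 minus control) of each of the 56 measured genes at its representative probe set, grouped by role, with bars for the standard error, color for whether the groups overlap, a solid line at 0 and a dotted line at the median of all genes (0.07). Most points sit within 0.2 of 0, the outermost are WIPI1 at -0.57 and MCOLN1 at 0.52, and no gene passed an adjusted p of 0.05.

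The TFEB family was examined first, since these regulators drive transcription of lysosomal genes. TFE3 was read at 555.4, 590.5 and 546.9 on the FOXA1 arrays and at 473.3, 498.4 and 455.3 on the control arrays. The lowest FOXA1 array lay above the highest control array, but the difference of 0.25 (SE 0.079) did not pass the test (adjusted p = 0.274). A second TFE3 probe set separated the groups the same way (88.7, 80.9 and 68.7 against 55.2, 63.3 and 63.5, log2 difference 0.38, adjusted p = 0.367), and TFE3 was the 1 gene of the set with such a separation above at more than 1 probe set. Its other 2 probe sets, which gave 0.39 and -0.67, were dim and overlapped. TFEB, the family's best studied lysosomal regulator, was read at 33.3, 32.1 and 35.1 against 31.7, 31.1 and 35.4. These arrays overlapped, and the 95% confidence interval of the log2 difference ran from -0.41 to 0.48. MITF, the regulator of melanocyte development, overlapped as well (124.5, 115.1 and 148.8 against 133.3, 141.1 and 119.7, interval -0.31 to 0.25).

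The promoters of the genes were searched for the letters that this family is known to bind. RefSeq (GRCh38.p14) promoters, running from 250 bases before to 50 bases after the first start listed, were found for 46 of the 57 genes. CACGTG occurred in 10 of the 46 (21.7%), in 7.43% of all 27305 promoters and in 8.9% of the 15384 promoters of measured genes. The longer TCACGTGA, which contains the shorter one, occurred in 6 of the 46 (13.0%), in 1.04% of all promoters and in 1.45% of those of measured genes. Both read the same on either strand. One 30-base window for each of the 6 genes is shown, 5′ to 3′ on the gene's strand with TCACGTGA in capitals, because these are the genes of the set that carry the full palindrome.
MCOLN1: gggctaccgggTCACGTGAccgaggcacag
CTSA: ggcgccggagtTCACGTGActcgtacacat
ATP6V0D1: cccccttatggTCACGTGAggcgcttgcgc
GAA: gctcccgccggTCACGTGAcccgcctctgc
LAMP1: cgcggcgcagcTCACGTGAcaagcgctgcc
ATG3: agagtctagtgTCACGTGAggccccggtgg

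The windows lie at chr19:7522598-7522627 on the plus strand for MCOLN1, chr20:45891298-45891327 (plus) for CTSA, chr16:67481199-67481228 (minus) for ATP6V0D1, chr17:80101538-80101567 (plus) for GAA, chr13:113297226-113297255 (plus) for LAMP1 and chr3:112561940-112561969 (minus) for ATG3. Counted from 0 at the annotated start of the gene, the palindrome begins at base -15 in MCOLN1, -26 in CTSA, -60 in ATP6V0D1, -32 in GAA, -2 in LAMP1 and 4 in ATG3, and MCOLN1, GAA and LAMP1 hold a second copy further upstream. A match of letters is a description of the sequence and not of binding.

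The 6 genes all had log2 differences above 0, from 0.04 for ATG3 to 0.52 for MCOLN1, with a median of 0.14. The other 39 measured genes with a promoter had a median of -0.02, and 19 of them were above 0. Centring each array on its median moved both by the same amount, to -0.04 and -0.21, with 2 of the 6 and 5 of the 39 above 0. With single arrays left out the median of the 6 ran from 0.10 to 0.18 and that of the 39 from -0.05 to 0.03. With probe sets that can also bind related transcripts left out, the 39 had a median of 0.02. Over all measured genes 130 of 223 with TCACGTGA (58.3%) were above 0, with a median of 0.04 against 0.06 for the genes without it. For the shorter CACGTG, 7 of the 10 genes of the set were above 0 (NEU1, CTSD and CD63 were below), and over all measured genes 841 of 1369 (61.4%) were, with a median of 0.08 against 0.06 without it.

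Among lysosomal membrane proteins values lay far out in both directions. MCOLN1, the calcium channel of the lysosomal membrane, was read at 87.6, 78.1 and 61.0 on the FOXA1 arrays and at 49.1, 47.4 and 60.5 on the control arrays. The groups were separated by the narrow gap between the third array of each (log2 difference 0.52, SE 0.178, adjusted p = 0.299). SCARB2, which carries glucocerebrosidase to the lysosome, was read (224983_at) at 537.5, 513.8 and 487.6 against 765.9, 726.4 and 641.8. Every FOXA1 array lay well below every control array, a difference of -0.47 with a standard error of 0.088, yet the adjusted p was 0.0973. Only when probe sets with dim signals were left out before the adjustment did SCARB2 pass (adjusted p = 0.0427). Its other probe sets gave -0.27, -0.07 and 0.22, so the separation was that of the representative probe set.

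The structural glycoproteins of the membrane overlapped at their representative probe sets. LAMP1 was read at 2303.9, 2430.7 and 2464.9 against 2412.8, 2170.4 and 2312.1, with overlap (log2 difference 0.06, 95% interval -0.10 to 0.23). LAMP2, which also serves chaperone-mediated autophagy, gave -0.10 (interval -0.29 to 0.09), and its 4 probe sets all lay between -0.14 and -0.10. One of these was lower on every FOXA1 array, at 108.3, 105.7 and 102.0 against 119.6, 111.3 and 113.1 (log2 difference -0.12, adjusted p = 0.726). The tetraspanin CD63 gave -0.02 (interval -0.18 to 0.13). For these genes differences within the intervals remain possible with 3 arrays a group. The intervals do not give the smallest difference that the test could call.

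The peptidases were spread about 0, with 5 of 10 on either side. CTSL, a cysteine protease, was read at 381.0, 400.7 and 369.8 against 454.0, 419.1 and 433.5. All FOXA1 arrays were lower, by a log2 difference of -0.18 with an adjusted p of 0.427. CTSA, the protective protein of beta-galactosidase and neuraminidase, lay the other way without overlap at 699.2, 708.6 and 699.4 against 654.9, 613.0 and 682.3 (log2 difference 0.11, adjusted p = 0.619). The widest differences were those of CTSH (-0.51, interval -1.02 to 0.00) and CTSK (0.44, interval -0.03 to 0.90), both dim and both overlapping. CTSD, the aspartic protease, gave -0.25 (interval -0.84 to 0.34), and CTSF was under a signal of 14 on average and its value is not described. CTSB, CTSC, CTSZ and TPP1 overlapped, at -0.02, 0.12, -0.17 and 0.04.

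Both nucleases were lower on every FOXA1 array at their representative probe sets. RNASET2, the acid RNase of the lysosome, was read by its representative probe set (217983_s_at) at 149.6, 176.8 and 183.1 on the FOXA1 arrays and at 195.8, 326.2 and 231.2 on the control arrays. The groups were apart by a small gap, and control array 2 stood highest (log2 difference -0.54, SE 0.166, adjusted p = 0.263). RNASET2 was chosen by the study from these same arrays, so this separation is not independent evidence of a change. DNASE2, which degrades DNA in the lysosome, was read at 188.1, 197.7 and 178.6 against 213.5, 250.0 and 207.6 (log2 difference -0.25, adjusted p = 0.405). A second DNASE2 probe set lay the same way without overlap, at 116.3, 111.4 and 132.2 against 144.3, 174.7 and 153.0 (log2 difference -0.39, adjusted p = 0.256). DNASE2 was the 1 gene with such a separation below at more than 1 probe set.

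The remaining probe sets annotated with RNASET2 did not separate the groups. One of them (217984_at) was read at 81.3, 100.3 and 102.1 against 94.6, 94.6 and 99.2, a log2 difference of -0.03 with overlap. The other 4 gave -0.82, -0.53, -0.28 and -0.24, each with overlap and with widely scattered signals. All log2 differences for RNASET2 were below 0, and 1 of its 6 probe sets set the groups apart.

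**Figure D2:**
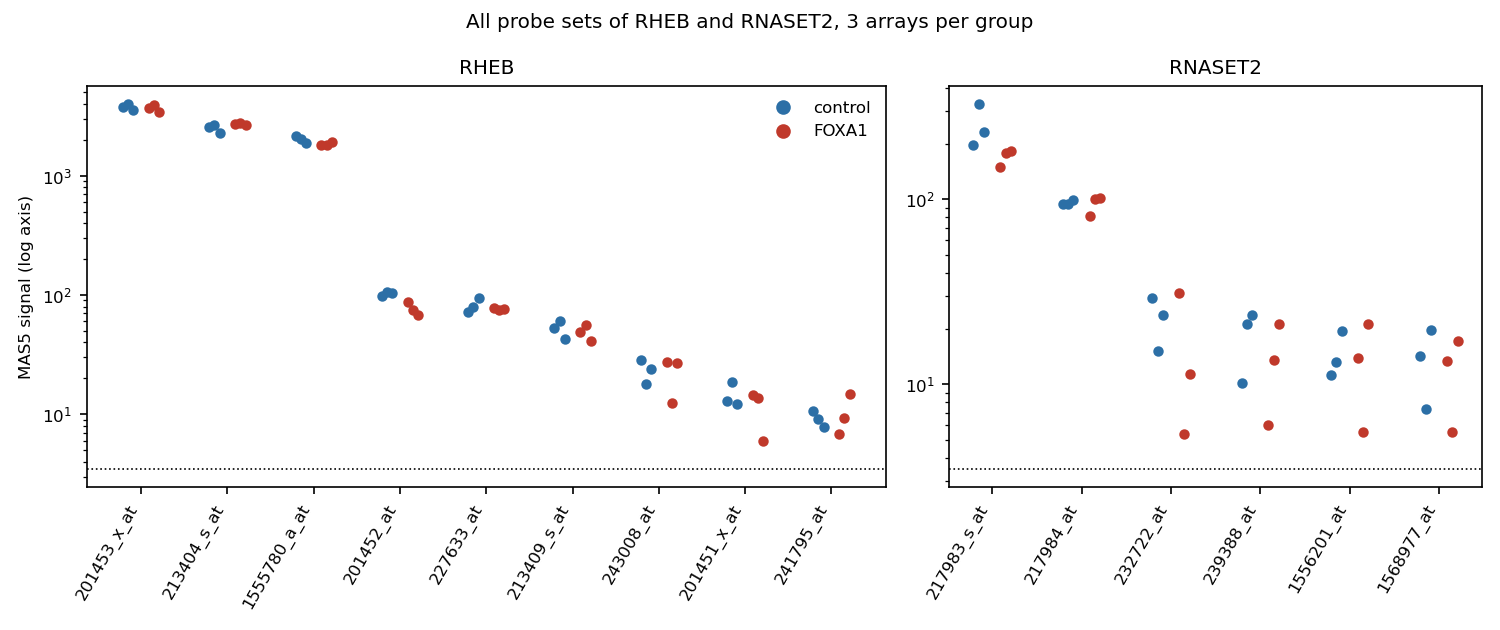
MAS5 signal on a log axis of every probe set of RHEB and RNASET2 on the 3 FOXA1 and 3 control arrays, 1 point an array, with a dotted line at the 20th percentile of all signals (3.5). One probe set of each gene separates the groups, with log2 differences of -0.43 for RHEB and -0.54 for RNASET2, and the other probe sets overlap.

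RHEB, the GTPase that activates mTORC1, was read by 9 probe sets. At its representative probe set (201453_x_at) the arrays were at 3696.3, 3930.3 and 3403.6 against 3756.8, 3972.1 and 3563.3. These overlapped, with a log2 difference of -0.03 and a 95% interval of -0.21 to 0.14. One other probe set, 201452_at, separated the groups, at 87.2, 75.0 and 68.2 against 98.9, 105.7 and 103.7 (log2 difference -0.43, SE 0.133, adjusted p = 0.263). That probe set is the one the study chose from these arrays. The others ran from -0.43 to 0.11 and overlapped, and signals of different probe sets cannot be set against each other to say which transcript form each one reads.

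Among the glycosidases and the sulfatase IDS 3 of 8 were above 0, and their median was -0.10. HEXA, the alpha subunit of beta-hexosaminidase, was read at 304.5, 287.6 and 246.3 on the FOXA1 arrays and at 355.3, 355.4 and 352.0 on the control arrays. The control arrays agreed closely and all FOXA1 arrays lay below them (log2 difference -0.35, SE 0.097, adjusted p = 0.214). Other HEXA probe sets, all much dimmer, overlapped and gave -0.13, 0.22 and -0.01, so the separation was that of the representative probe set. GUSB, beta-glucuronidase, also lay below without overlap (372.2, 407.1 and 380.9 against 421.2, 456.3 and 410.2, log2 difference -0.15, adjusted p = 0.540). The others overlapped, with FUCA1 at -0.21, MANBA at -0.14, NEU1 at -0.06, GLA at 0.10, IDS at 0.11 and GAA at 0.16.

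Genes of lipid degradation gave a median of 0.03. PPT1, which removes palmitate from proteins, was separated by a narrow margin, at 2190.6, 2241.6 and 2271.2 against 2146.6, 2124.9 and 2185.5 (log2 difference 0.05, adjusted p = 0.812). ASAH1, acid ceramidase, gave opposite answers at separate probe sets. Its representative probe set was read at 817.7, 798.6 and 764.2 against 716.8, 646.7 and 707.4, all FOXA1 arrays above (log2 difference 0.20, adjusted p = 0.352). Another was read at 265.7, 284.2 and 252.5 against 318.9, 328.1 and 299.4, all FOXA1 arrays below (-0.24, adjusted p = 0.341). PSAP, the precursor of the saposins, gave 0.15, GRN (progranulin) -0.07, SMPD1 (acid sphingomyelinase) -0.03 and LIPA (acid lipase) 0.00, all with overlap.

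**Figure D3:**
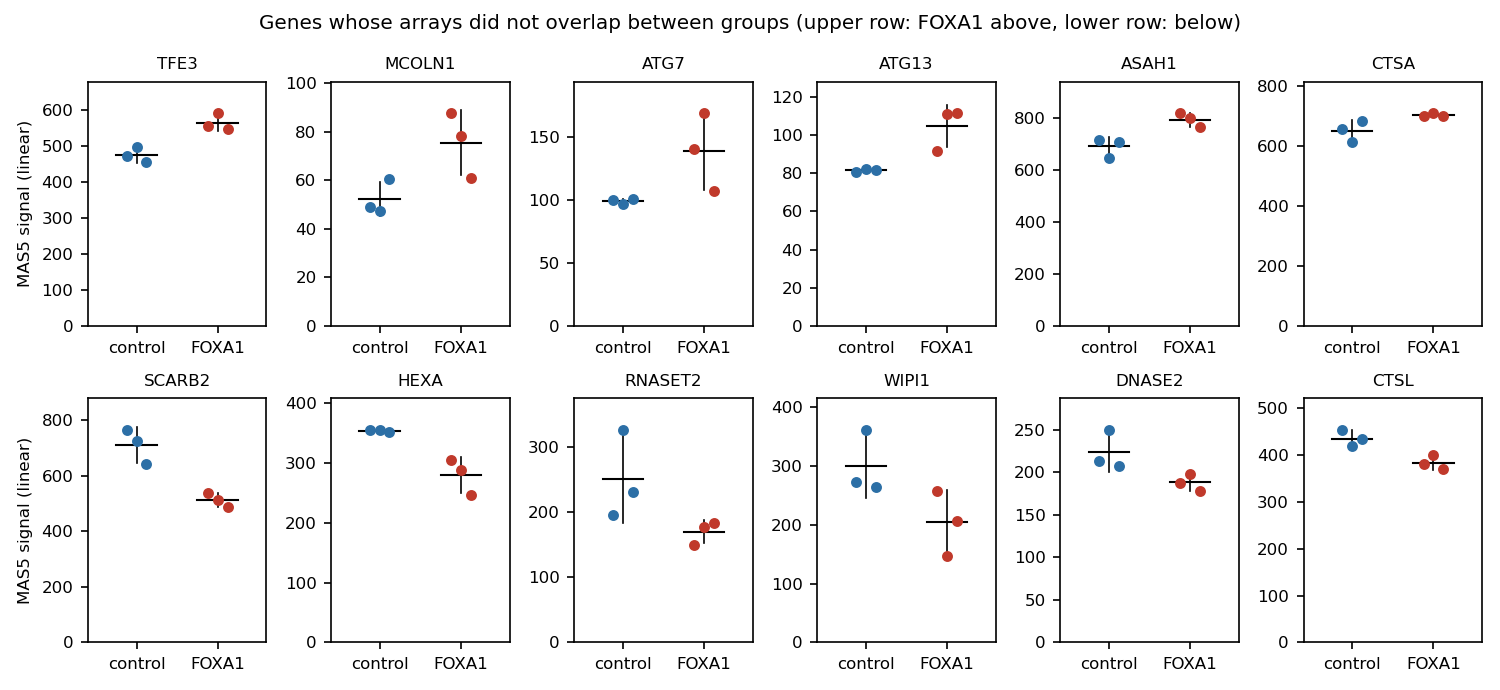
Linear MAS5 signal of 12 of the 15 genes whose groups did not overlap, 1 point an array, with the mean (horizontal line) and SD (vertical line) of each group of 3. The upper 6 genes have all FOXA1 arrays above the control arrays and the lower 6 below, and the gap is narrow for MCOLN1 and wide for SCARB2.

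Genes of the proton pump mostly shared a sign on the deposited scale, and none passed the test. The 5 V-ATPase genes of the set (ATP6AP1, ATP6V0D1, ATP6V1A, ATP6V1B2 and ATP6V1H) had log2 differences of 0.25, 0.28, 0.15, 0.05 and 0.19, each with overlap between groups. ATP6V0D1 was read at 504.2, 568.9 and 618.2 against 461.3, 384.6 and 562.2, where 2 of the control arrays were below all FOXA1 arrays. Of 12 further subunits with a probe set, 10 were above 0 and 4 (33.3%) lay above without overlap, beside 12.5% of all genes and 14.6% of the brighter ones, and none of them passed the test. ATP6V0E2, of the membrane sector, was read at 378.5, 374.2 and 337.8 against 260.2, 251.4 and 290.8 (log2 difference 0.44, SE 0.094, adjusted p = 0.123). Every FOXA1 array was higher than every control array, as also for ATP6V0B (0.38), ATP6V0C (0.35) and ATP6V0A1 (0.32).

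Over all 17 V-ATPase genes 15 were above 0 with a median of 0.19, against 59.2% of all genes above 0 and a median of 0.07, and after centring each array on its median 9 of the 17 (52.9%) were above 0 with a median of 0.004, against 38.3% of all genes and a median of -0.11. Split by symbol after the values were seen, the 7 genes of the membrane sector V0, through which protons pass, had a median of 0.32. The 8 of the V1 sector, which hydrolyzes ATP, had 0.09. The difference between the sectors was not tested.

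**Figure D4:**
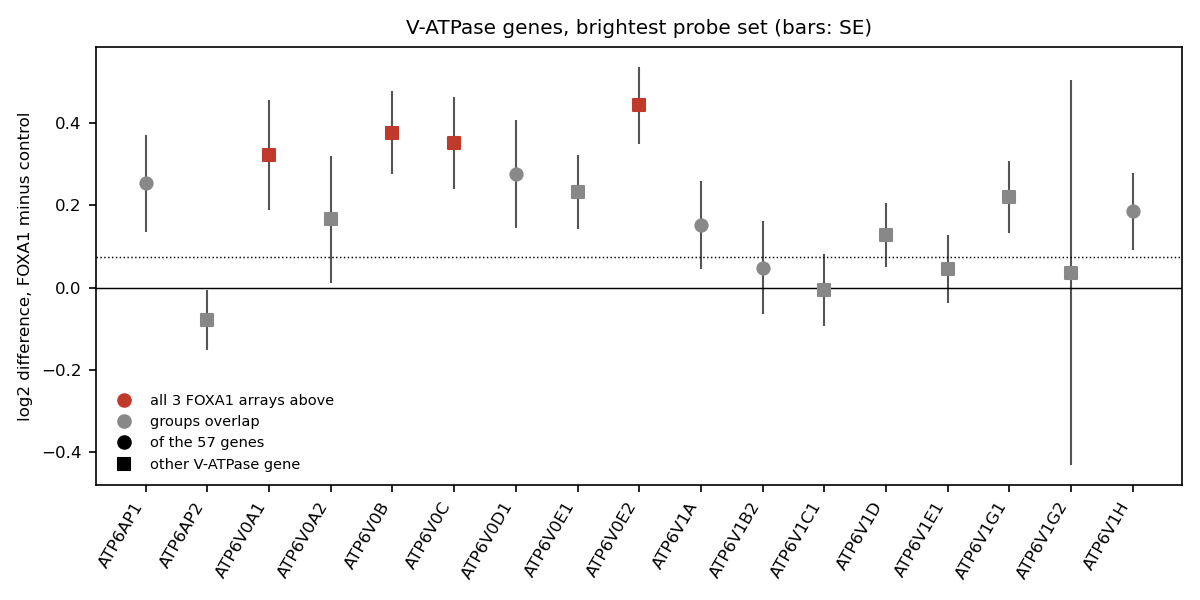
Log2 difference (FOXA1 minus control) of the 17 V-ATPase genes, with bars for the standard error, circles for the 5 genes of the set, squares for the others and a dotted line at the median of all genes (0.07). Of the 17 points 15 lie above 0 with a median of 0.19 on the deposited scale (0.004 when each array is centred on its median, where the median of all genes is -0.11), and none passed the adjusted test.

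Genes that start autophagosome formation differed in direction. ATG13, a subunit of the ULK kinase complex, was read at 91.8, 111.0 and 111.3 against 80.6, 82.3 and 81.7 with all FOXA1 arrays above (log2 difference 0.36, SE 0.128, adjusted p = 0.319). Its other probe sets gave 0.20 and -0.55. WIPI1, which binds phosphatidylinositol 3-phosphate on the growing membrane, was read at 258.3, 147.7 and 206.9 against 272.2, 361.4 and 263.9, all below and with a wide spread (log2 difference -0.57, SE 0.186, adjusted p = 0.278). A second WIPI1 probe set gave -0.51 with overlap (adjusted p = 0.281). WIPI2, its relative, gave -0.05 with overlap at the representative probe set, but another was lower on all FOXA1 arrays, at 268.7, 251.3 and 238.7 against 301.2, 302.4 and 327.1 (log2 difference -0.30). The kinase ULK1 gave 0.03, BECN1, a subunit of the class III phosphatidylinositol 3-kinase complex, 0.10, and UVRAG, its partner, 0.18, all with overlap.

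Of the genes that conjugate ATG8 to lipid, ATG7 stood out by its values and not by its test. ATG7, the E1-like enzyme, was read at 140.3, 168.5 and 106.8 against 99.6, 96.6 and 100.3 (log2 difference 0.46, SE 0.156, adjusted p = 0.295). The control arrays agreed closely and the FOXA1 arrays were scattered above them. The other ATG7 probe sets gave 0.12, -0.20 and 0.21. ATG12, the ubiquitin-like protein joined to ATG5, lay below without overlap at 527.5, 499.3 and 544.8 against 576.9, 564.2 and 552.7 (log2 difference -0.11, adjusted p = 0.639). ATG3, ATG5 and ATG16L1 overlapped, at 0.04, 0.06 and 0.05.

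The ATG8 proteins, which coat the autophagosome membrane, and the receptor SQSTM1, which tethers ubiquitinated cargo to them, all overlapped between the groups at their representative probe sets. GABARAP was read at 1816.7, 1914.0 and 1708.9 against 1607.4, 1674.3 and 1729.6, with overlap (log2 difference 0.12, 95% interval -0.05 to 0.28). MAP1LC3B was read at 888.1, 874.1 and 791.7 against 905.8, 906.0 and 878.5, with overlap (log2 difference -0.08, interval -0.24 to 0.09). A second MAP1LC3B probe set of similar brightness gave 0.15, also with overlap. GABARAPL1 and GABARAPL2 gave 0.07 and -0.08, and a second GABARAPL1 probe set gave -0.23 with overlap. SQSTM1 was read at 552.5, 598.6 and 556.4 against 560.6, 560.8 and 556.3 (log2 difference 0.02, interval -0.14 to 0.19). Differences within these intervals remain possible, and the test may also miss larger ones.

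The sign of the difference varied among the probe sets of a gene in most cases that could be checked. Of the 29 genes with 2 or more probe sets over a mean signal of 14, all probe sets had the same sign for 10 and mixed signs for 19, and 26 genes had 1 such probe set. Many of these values were near 0, and 0 of the 148 probe sets were called higher and 0 lower. Only 1 gene, ASAH1, separated the groups in both directions, so mixed signs alone do not show that probe sets differ. Over the 122 probe sets above that signal 9 lay above (7.38%) and 15 below (12.3%) without overlap, and the median was -0.02. Among brighter genes 14.6% lay above and 10.4% below, but these are shares of genes at their representative probe sets and not of probe sets. The share of all probe sets above that signal was not computed. Over all 148 probe sets of these genes, dim ones included, 6.76% lay above and 10.1% below, beside 10.5% and 5.86% of all probe sets. The representative probe sets of ASAH1, DNASE2, RHEB, CTSB, GRN and IDS are of the design type that can also bind related transcripts. Besides RHEB, LAMP2 and WIPI2, a single other probe set over that signal separated the groups for IDS, CTSB and SQSTM1 where the representative one did not, at 0.40, -0.33 and -0.55.

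**Figure D5:**
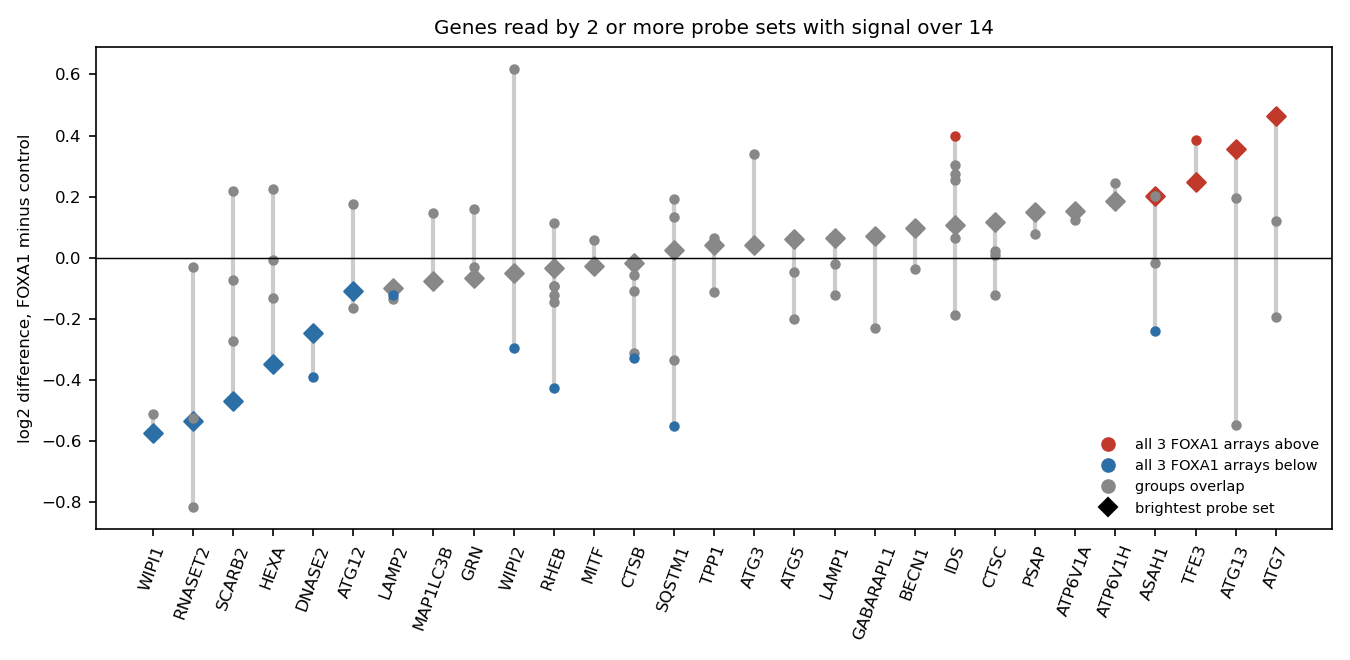
Log2 difference (FOXA1 minus control) of every probe set with a mean signal over 14, for genes read by 2 or more such probe sets, 1 point a probe set, with diamonds for the representative ones and color for whether the groups overlap. Of the 29 genes 10 have all points on one side of 0 and 19 have points on both sides.

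The other genes of these pathways were taken from lists by function. Of 131 listed genes 117 were measured, and limma called 0 higher and 0 lower. At an unadjusted p under 0.05 there were 21 higher (17.9%) and 7 lower (5.98%), beside 9.07% and 5.49% of all genes. Of the 12095 brighter genes 1390 were higher and 996 lower at that p. Without overlap 20 lay above (17.1%) and 11 below (9.40%), beside 12.5% and 7.25% of all genes and 14.6% and 10.4% of the brighter ones. The log2 difference was above 0 for 67 and below for 50, with a median of 0.04. In the list of other lysosomal enzymes (18 measured) the smallest p was that of ARSB, arylsulfatase B, read at 76.9, 62.8 and 99.3 against 59.8, 43.4 and 46.5 (log2 difference 0.66, adjusted p = 0.246). Among 19 other membrane and delivery proteins it was that of CLCN7, the lysosomal chloride-proton exchanger, with 133.7, 139.7 and 143.8 against 91.6, 119.2 and 122.4 (0.34, adjusted p = 0.364). In both genes all FOXA1 arrays lay above the control arrays.

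In the autophagy lists the smallest p belonged to genes with lower values. RB1CC1, the scaffold of the ULK complex, was read at 540.9, 671.7 and 625.4 against 800.4, 823.2 and 728.5 (log2 difference -0.36, adjusted p = 0.197), the smallest p among 29 genes of the machinery. NBR1, a cargo receptor related to SQSTM1, was read at 630.3, 586.5 and 499.2 against 846.4, 934.3 and 695.8 (log2 difference -0.53, adjusted p = 0.147), the smallest of 12 receptors. In both genes all FOXA1 arrays lay below the control arrays. Among 27 genes of mTORC1 signaling at the lysosome, FLCN (folliculin), which acts on the Rag GTPases, had the smallest p, at 129.9, 156.6 and 168.2 against 113.6, 100.5 and 122.7 (log2 difference 0.43, adjusted p = 0.256), all FOXA1 arrays above.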

How the data were processed

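RNA of EJ/T24 cells was hybridised to 6 HG-U133 Plus 2.0 arrays (1 colour). The deposited values are linear MAS5 signal intensity values computed by the authors with scaling to a common trimmed mean. Their methods name RMA and SAM, which the deposited table does not hold. Array precision is limited by the 3 arrays a group. Of 54675 probe sets 62 controls were left out. The 25 values listed at 0 were set to 0.1, log2 was taken, and limma 3.58.1 in R 4.3.3 (lmFit, eBayes with an intensity trend, two-sided) was fitted to all 54613 probe sets with Benjamini-Hochberg adjustment, after tests on simulated data. The platform table gave 41091 probe sets 1 symbol, 1801 several and 11721 none, and the last 2 kinds were not used by name. MAS5 subtracts mismatch signal, which widens the spread of dim probe sets. Detection calls were not used here.

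The genes and lists were chosen with earlier results of these data known. Named individually were all probe sets of RHEB and RNASET2, the TFEB family, the ATG8 proteins, the 6 genes of smallest p in each direction, the genes of highest signal and largest difference in each role, genes with probe sets of mixed sign, and the gene of smallest p in each further list. Genes named besides these were chosen after their values were seen. Alternatives were quantile normalization, median centring, a floor at the 20th percentile (3.5), the median over probe sets, SAM with 20 label assignments and limma without the intensity trend. Others were a replicate block, leaving out dim probe sets or those that can also bind related transcripts, and each array left out. Replicate numbers were not taken as pairs.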

Additional observations from a re-analysis of the deposited data

How the results depend on the processing

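The limits are those of 3 arrays a group, of a deposited scaling whose effect on values near 0 exceeds many of the differences, and of single probe sets. Over the alternatives run, 606 values of single genes and probe sets kept their direction and their side of the threshold, 32 reversed and 1 (SCARB2) came to pass the test.

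After median centring the median of the 56 genes was -0.14 and the V-ATPase median was 0.0037. Of the 56 genes 0 lay above without overlap, with no share of all genes to set beside this count. With this centring the log2 differences of ATG3 (-0.14), ATG5 (-0.12), ATP6V1A (-0.031), BECN1 (-0.084), CTSA (-0.069), CTSC (-0.065), GABARAP (-0.065), GABARAPL1 (-0.11), GLA (-0.078), IDS (-0.077), LAMP1 (-0.12), PPT1 (-0.13), SQSTM1 (-0.16), TFEB (-0.15), TPP1 (-0.14) and the RHEB probe set 213404_s_at (-0.070) reversed, as all values shift by the same amount (the median of all genes became -0.11). Quantile normalization reversed TFEB (-0.052) and gave a V-ATPase median of 0.21. With dim probe sets left out 1 gene was called lower, SCARB2, where fewer probe sets were tested. The median over a gene's probe sets left 4 genes above and 3 below without overlap, since other probe sets enter. These counts too have no share of all genes beside them.

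Leaving out each array in turn gave 0 calls in either direction, medians from -0.0056 to 0.056, 7 to 12 genes above and 10 to 11 below without overlap (12 above without FOXA1 replicate 3 or control replicate 3, and 11 without FOXA1 replicate 1), where a smaller group separates more easily. The counts without overlap have no share of all genes for the same arrays beside them, and they are not read as results about the set. V-ATPase medians ran from 0.13 to 0.25. Values that reversed when an array was left out ran from -0.13 to 0.054 for MITF, -0.012 to 0.045 for SQSTM1, -0.00093 to 0.092 for TFEB, -0.067 to 0.16 for GABARAPL1, -0.0086 to 0.17 for IDS, -0.029 to 0.083 for TPP1, -0.090 to 0.074 for RNASET2 217984_at, and for RHEB from -0.084 to 0.019, with -0.34 to 0.23 at 243008_at, -0.23 to 0.027 at 213409_s_at and -0.18 to 0.015 at 227633_at.

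With the replicate number as a block 0 genes of the set were called higher and 0 lower (smallest adjusted p = 0.0555 by limma), and 1 other gene of the pathways, NBR1, was called lower (adjusted p = 0.0485). The deviations from the group means of same-numbered arrays correlated at 0.050, 0.18 and 0.11, not all over 0.1, so the numbers were not taken as pairs, although each array's deviations correlated best with those of its own number. Leaving out RHEB and RNASET2 could not change the 0 calls, since neither was called, so it is no check on the result. The cause of the other shifts was not tested.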
